A study of Mus musculus with 2 samples.

Results

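Metallothioneins and the zinc transporters of the SLC30A and SLC39A families were described by RNA-seq in 2 patient-derived xenograft tumors, 1 library each. A patient-derived xenograft is a human tumor propagated by transplantation in immunodeficient mice. Members were taken by gene symbol, without pseudogenes, and not by measured values. The symbol rule found 34 genes among 57011 distinct labels of the table: 9 metallothioneins, 10 zinc exporters (SLC30A), 14 zinc importers (SLC39A) and MTF1. SLC39A1 and SLC39A3 were reported only in loci merged with other protein-coding genes, so 32 members had a value of their own. Of these, 23 reached 1 FPKM in at least 1 library and 9 did not.

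The primary group was 1 library of a gastroenteropancreatic neuroendocrine tumor described as primary and carried in the flank. The metastatic group was 1 library of a tumor of the same type described as metastatic and carried in the peritoneal cavity. Both hosts were athymic nude mice with the Foxn1nu allele, and no treatment is given in the labels. RNA came from pellets of tumor cells after dissociation of the excised tumors. Graft location and tumor origin differed together and cannot be told apart. The library titles share a stem, to which that of the metastatic library adds met. The labels do not state how many mice or passages stand behind a library, or whether both tumors came from the same patient. With 1 library per group no value could be set against a spread between replicates, and none was tested.

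Levels are FPKM as deposited, by definition fragments scaled to transcript length and to the number of mapped fragments, so levels of different genes are compared per length. Whether each library was scaled to its own number of mapped fragments is not known. The files give no counts, and the depth is unknown. FPKM summed to 784987 in the primary against 885319 in the metastatic library. The log2 ratio is log2((metastatic FPKM + 1)/(primary FPKM + 1)), a scale that understates differences of low genes. Where 2 levels of a gene follow each other, the primary library comes first. A gene is called higher or lower at a difference of 2-fold on it. Over the 13811 labels of at least 1 FPKM in a library the median log2 ratio was 0.03. In the metastatic library 9.22% of these labels were higher by 2-fold or more and 9.35% were lower by as much. Among defining neuroendocrine markers, CHGA was listed at 0 in both libraries, which can be a failed estimate, SYP stood at 1.63 FPKM in the primary against 1.96 in the metastatic, and INSM1 at 3.54 and 0.271. UCHL1, a neuronal and neuroendocrine hydrolase, stood at 225 and 705 FPKM. Of 5 neuroendocrine markers that reached 1 FPKM, 2 were lower and 1 higher by 2-fold or more, with a median log2 ratio of -0.98.

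Metallothioneins are small, cysteine-rich proteins that bind zinc, copper and cadmium and buffer the free zinc of the cell. Their genes lie in a cluster and are switched on by zinc through MTF1, a zinc-sensing transcription factor that binds metal response elements in their promoters. Glucocorticoids and oxidative stress also induce them. SLC30A proteins (ZnT) move zinc out of the cytosol, across the plasma membrane or into organelles, and SLC39A proteins (ZIP) move it into the cytosol.

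Metallothionein transcripts were less abundant in the metastatic library, while zinc transporters mostly stayed within 2-fold, as most labels did. Of the 9 metallothionein genes, 6 were lower by 2-fold or more, beside 9.35% of all labels. Another 3 were within 2-fold and 0 were higher by 2-fold or more. Their median log2 ratio was -1.43, beside 0.03 over all labels. All 9 reached 1 FPKM in both libraries. Their summed level was 7945 FPKM in the primary against 3548 in the metastatic library, a log2 ratio of -1.16. That sum made up 1.01% of all FPKM in the primary against 0.401% in the metastatic library. In bulk RNA, fewer cells of a type and less RNA per cell cannot be told apart.

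**Figure D1:**
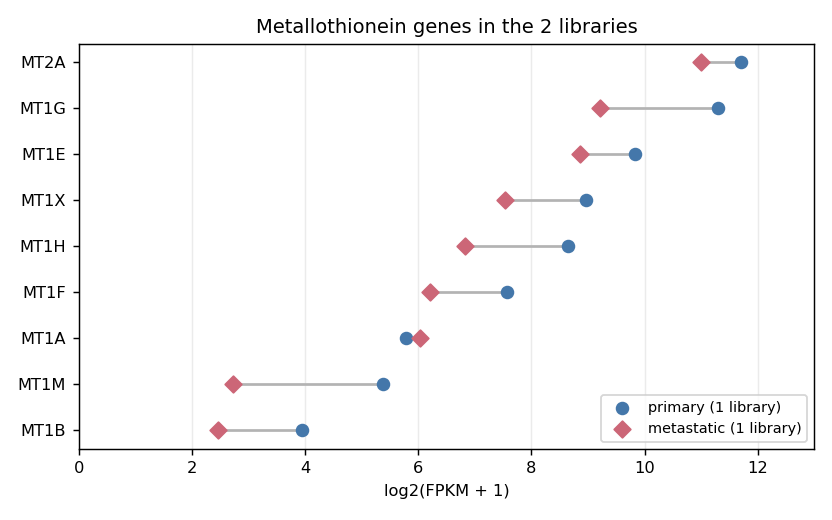
Levels of the 9 metallothionein genes as log2(FPKM + 1) on the horizontal axis, with a circle for the primary library and a diamond for the metastatic library, 1 library each. The diamond lies left of the circle for every gene but MT1A, and the widest gap is that of MT1M (log2 ratio -2.65).

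MT2A, the isoform that most tissues express most strongly, was also the most abundant here. It stood at 3313 FPKM in the primary against 2047 in the metastatic library, a log2 ratio of -0.69, within 2-fold. By level it ranked 34 among all labels of the primary library and 62 in the metastatic library. MT1G, one of the MT1 isoforms, was the second of the family in both libraries. It stood at 2526 FPKM in the primary against 591 in the metastatic library, a log2 ratio of -2.09 and a fold of 4.27. Its rank was 45 in the primary against 213 in the metastatic library. MT1G was thus close to MT2A in the primary tumor and well below it in the metastatic tumor: the level of MT2A was 1.31 times that of MT1G in the former and 3.46 times in the latter.

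MT1E, an isoform whose gene lies near MT2A in the cluster, stood at 905 FPKM in the primary against 465 in the metastatic library. Its log2 ratio of -0.96 left it just within 2-fold, and it was -1.13 once both libraries were brought to an equal sum. MT1X stood at 501 and 185 FPKM, a log2 ratio of -1.43, and MT1H at 402 and 112 FPKM, a log2 ratio of -1.83. Both were thus lower by more than 2-fold in the metastatic library. MT1F stood at 188 and 73.2 FPKM, with a log2 ratio of -1.35.

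The 3 metallothioneins of lowest level in the primary library differed in direction. MT1M stood at 40.5 FPKM in the primary against 5.60 in the metastatic library, a fold of 7.23 and the largest difference in log2 ratio among the members. MT1B stood at 14.5 and 4.50 FPKM, a log2 ratio of -1.49. MT1A went the other way, with 54.2 FPKM in the primary against 64.2 in the metastatic library, a log2 ratio of 0.24 within 2-fold. MT1 genes are near-identical over much of their length, so reads can be split among them in different ways and single values are uncertain. The sum of the 8 MT1 genes, which depends less on such splitting, was 4631 FPKM in the primary against 1501 in the metastatic library, a log2 ratio of -1.62.

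The make-up of the family differed as well. MT2A accounted for 41.7% of the metallothionein sum in the primary against 57.7% in the metastatic library, and MT1G for 31.8% and 16.7%. MT1E had a similar share, 11.4% and 13.1%, as did MT1X with 6.31% and 5.21%. MT1H made up 5.05% and 3.16% of the sum and MT1F 2.37% and 2.06%. MT1A, MT1M and MT1B were each below 2% in both libraries. The metastatic library thus held a larger share of MT2A and a smaller share of MT1G within a smaller total.

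**Figure D2:**
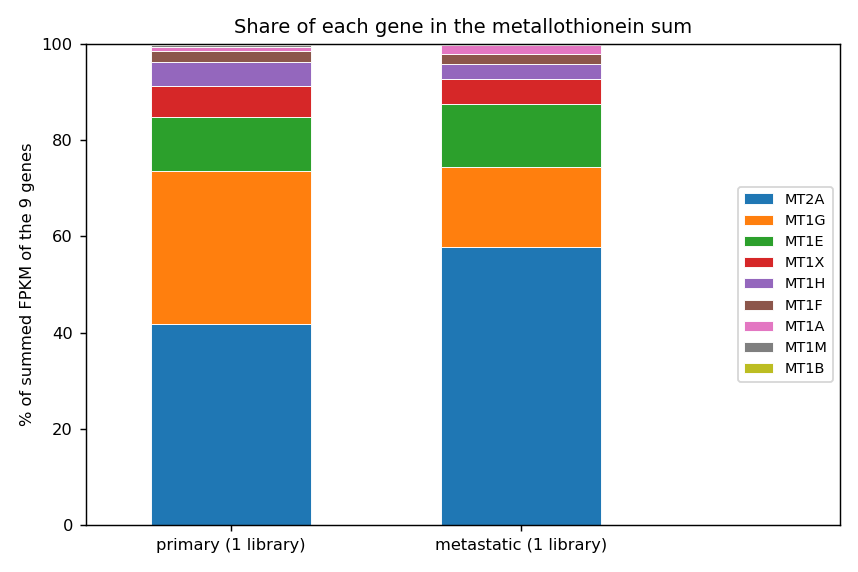
Stacked bars of the percent of the summed FPKM of the 9 metallothionein genes that each gene contributed, for the primary and the metastatic library, 1 library each. The MT2A segment grows from 41.7% to 57.7% and the MT1G segment shrinks from 31.8% to 16.7%.

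Metallothioneins outside the symbol rule were sparse. MT3, the isoform first described in brain, stood at 2.89 FPKM in the primary against 0.224 in the metastatic library, a log2 ratio of -1.67. MT4, a gene of stratified epithelium, and MT1HL1 were listed at 0 in both. TESMIN, a metallothionein-like gene of testis, stood at 3.59 and 4.08 FPKM.

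MTF1 did not share the lower level of its metallothionein targets. It stood at 2.07 FPKM in the primary against 3.08 in the metastatic library, a log2 ratio of 0.41 within 2-fold. SLC30A1, the plasma membrane exporter that MTF1 also controls, stood at 6.08 and 9.45 FPKM, a log2 ratio of 0.56. Both genes had the higher value in the metastatic library, opposite to 8 of the 9 metallothioneins.

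Zinc exporters showed no member past 2-fold among the 5 that reached 1 FPKM, and their median log2 ratio was 0.24. Most of all labels were within 2-fold as well. SLC30A5, SLC30A6 and SLC30A7 load zinc into the early secretory pathway, where it is taken up by enzymes such as alkaline phosphatases. SLC30A5 was the most abundant zinc transporter with a value of its own, at 66.2 FPKM in the primary against 78.3 in the metastatic library. SLC30A6, its partner in a heterodimer, stood at 10.9 FPKM in both, and the sign of its log2 ratio of 0.0020 turned under each of the 3 rescalings. SLC30A7 stood at 7.61 and 13.3 FPKM, a log2 ratio of 0.74, the highest among the exporters. These 3 genes summed to 84.7 and 103 FPKM. SLC30A9, a mitochondrial zinc exporter, stood at 16.5 and 13.7 FPKM, a log2 ratio of -0.25.

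The other 5 exporters were under 1 FPKM in both libraries. SLC30A8, which loads zinc into insulin granules of beta cells, was listed at 0 in both. SLC30A10, a manganese exporter, stood at 0.0740 and 0.187 FPKM, and SLC30A4, an endosomal exporter, at 0.0323 and 0.0793. SLC30A2, known from mammary gland and pancreatic acinar cells, stood at 0.0146 and 0.0291 FPKM, and SLC30A3, which fills synaptic vesicles, at 0.0163 and 0.0327. For both of these genes the metastatic value was 2.0002 times the primary value. Whole-number ratios of this kind were frequent at low levels: among 6437 labels between 0 and 1 FPKM on each side, the quotient of the 2 values fell within 0.01% of a quotient of integers no larger than 5 for 41.4%. Such values rest on very few fragments, and no difference was read from them.

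**Figure D3:**
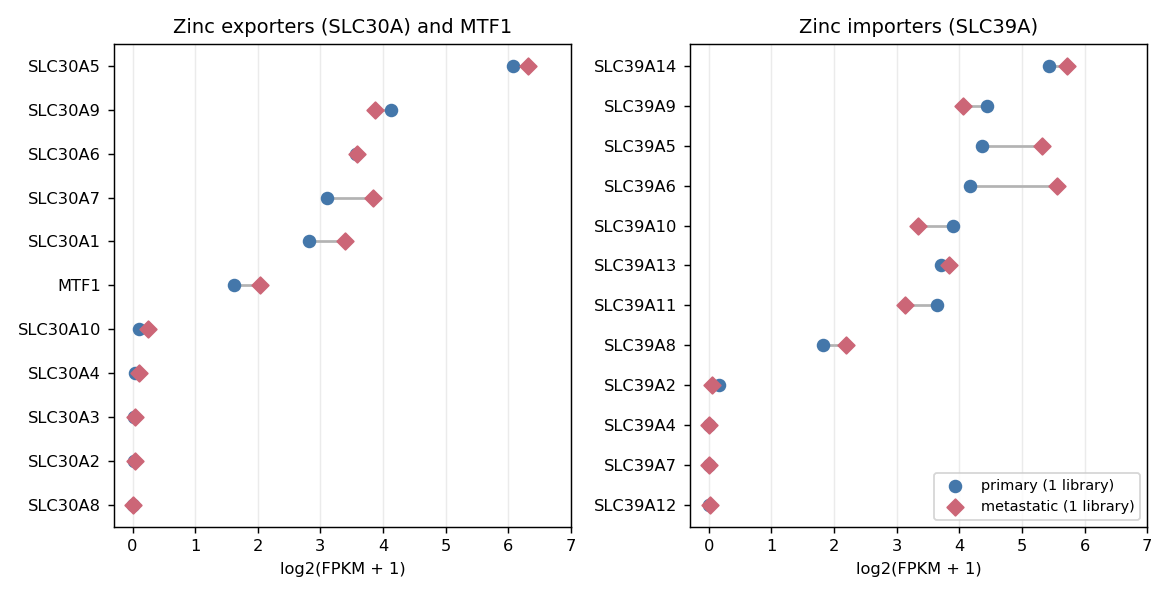
Levels of the zinc exporters with MTF1 (left) and of the zinc importers (right) as log2(FPKM + 1), circles for the primary and diamonds for the metastatic library, 1 library each. Most pairs lie close together; SLC39A6 has the widest gap, from 16.9 FPKM in the primary to 46.4 in the metastatic library, and 9 genes lie near 0 in both.

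Among the zinc importers, SLC39A6 was the one member with a value of its own that was higher by 2-fold or more in the metastatic library. Of 8 importers that reached 1 FPKM, 7 were within 2-fold, 1 was higher and 0 were lower by 2-fold or more. Over all labels 9.22% were higher and 9.35% lower by as much. The median log2 ratio of the importers was 0.21. SLC39A6 (LIV-1), a plasma membrane importer known as an estrogen-induced gene of breast cancer, stood at 16.9 FPKM in the primary against 46.4 in the metastatic library, a log2 ratio of 1.40. Its close relative and heteromer partner SLC39A10 went the other way, at 13.9 and 9.09 FPKM, a log2 ratio of -0.56. The 2 partners were thus at similar levels in the primary tumor, with a ratio of SLC39A6 to SLC39A10 of 1.22, and apart in the metastatic tumor, with a ratio of 5.10.

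SLC39A5, a basolateral importer of intestine, pancreas and liver, stood at 19.6 FPKM in the primary against 39.0 in the metastatic library. Its log2 ratio of 0.96 was just within 2-fold. SLC39A14, which carries zinc, iron and manganese and is induced by interleukin signals in liver, was the most abundant importer with a value of its own. It stood at 42.04 and 51.8 FPKM, a log2 ratio of 0.30, and its close relative SLC39A8 at 2.54 and 3.58 FPKM, a log2 ratio of 0.37. These 3 importers thus all had the higher value in the metastatic library, within 2-fold.

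Importers that reside in the Golgi or in vesicles were close between the libraries. SLC39A9, of the Golgi, stood at 20.8 FPKM in the primary against 15.7 in the metastatic library, a log2 ratio of -0.39. SLC39A11 stood at 11.5 and 7.82 FPKM, a log2 ratio of -0.50. SLC39A13, which releases zinc from vesicles and is needed for connective tissue, stood at 12.0 and 13.3 FPKM. Its log2 ratio of 0.13 became -0.03 once both libraries were brought to an equal sum.

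The remaining importers gave little or no signal. SLC39A4, the intestinal importer whose loss causes acrodermatitis enteropathica, was listed at 0 in both libraries in each of its 2 rows. SLC39A7, which releases zinc from the endoplasmic reticulum and is expressed by most cells, was listed at 0 in all 6 of its rows, and an exact 0 in these files can be a failed estimate. SLC39A2 stood at 0.117 and 0.0399 FPKM, and SLC39A12, a brain importer, was listed at 0 in the primary library and at 0.0187 FPKM in the other. The locus that merges SLC39A1 with JTB and RAB13 stood at 265 and 353 FPKM, a log2 ratio of 0.41. The locus that merges SLC39A3 with DIRAS1 stood at 8.33 and 29.3 FPKM, a log2 ratio of 1.70. How much of either merged value belongs to the importer cannot be read from the table.

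**Figure D4:**
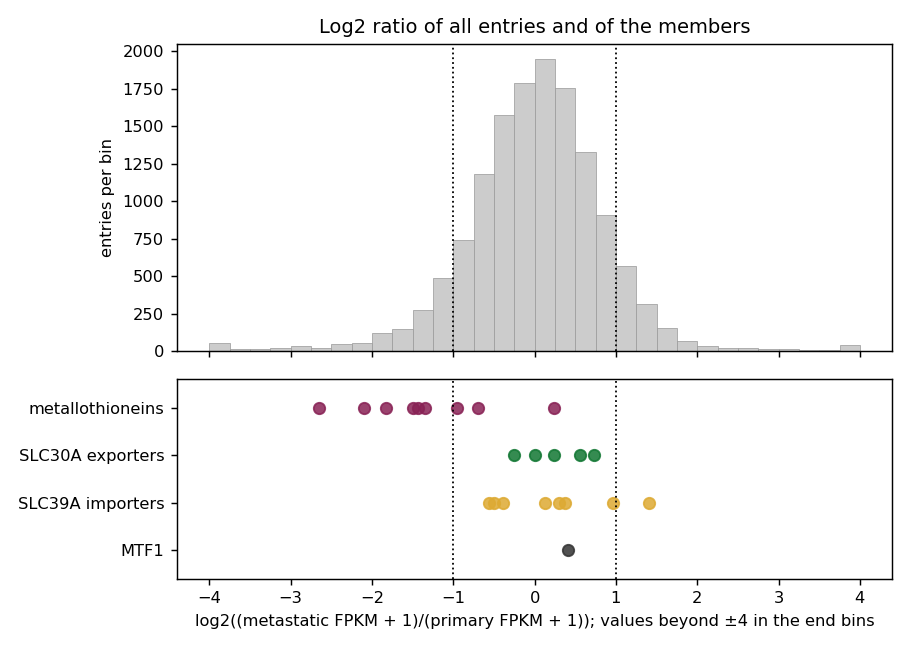
Upper panel, number of labels of at least 1 FPKM per bin of log2 ratio (metastatic over primary, bins of 0.25, 13811 labels); lower panel, the 23 members that reached 1 FPKM, 1 point per gene; dotted lines mark 2-fold. Of the 9 metallothioneins, 6 lie left of the lower 2-fold line and MT1A lies at 0.24; all exporters lie between the lines, as do all importers but SLC39A6 (1.40).

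Among all 23 members that reached 1 FPKM, 6 were lower and 1 was higher by 2-fold or more. Every lower one was a metallothionein. The backgrounds of 9.22% higher and 9.35% lower correspond to 1273 and 1291 labels. Bringing both libraries to an equal sum moved the median over all labels by -0.16, to -0.13. The background became 7.17% higher and 12.6% lower, so 36.2% of the calls were higher in place of 49.6%. Under that scaling the members had 1 higher and 7 lower, MT1E being the one added, and the median of the metallothioneins was -1.61. The medians of exporters and importers were then 0.07 and 0.05.

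Other genes of metal handling and of the signals that induce metallothioneins were read from lists chosen by function or position. Counts past 2-fold in these lists stand beside 9.22% higher and 9.35% lower over all labels. Of 9 genes of the response to heavy metals and oxidative stress that reached 1 FPKM, 2 were higher and 0 lower by 2-fold or more. Their median log2 ratio was 0.68, and 8 of the 9 had a log2 ratio above 0. SLC7A11, the cystine importer that feeds glutathione synthesis, stood at 0.303 FPKM in the primary against 2.29 in the metastatic library. GCLM, a subunit of the enzyme that starts that synthesis, stood at 11.5 and 27.5 FPKM. The heme oxygenase HMOX1, at 10.3 and 19.9 FPKM, the cochaperone DNAJB1, at 131 and 213 FPKM, and the quinone reductase NQO1, at 185 and 294 FPKM, were within 2-fold on the log2 scale used.

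Of 9 glucocorticoid-responsive genes that reached 1 FPKM, 3 were lower and 0 higher by 2-fold or more, all 9 had a log2 ratio below 0, and the median was -0.78. The phosphatase DUSP1 stood at 101 FPKM in the primary against 25.4 in the metastatic library, TSC22D3 (GILZ) at 16.4 and 6.58, and the NF-kB inhibitor NFKBIA at 55.2 and 25.1. DUSP1 and NFKBIA also respond to other stimuli. ERRFI1, an inhibitor of the EGF receptor, stood at 177 and 101 FPKM. FKBP5, a widely used readout of the glucocorticoid receptor, stood at 26.4 and 22.9 FPKM, and the receptor gene NR3C1 at 21.1 and 11.9, like ERRFI1 within 2-fold. The 9 genes include NR3C1, which encodes the receptor itself and is not a readout of it, and the median of -0.78 is its value.

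Copper handling genes had a median log2 ratio of 0.38 over 10 that reached 1 FPKM, and 1 was higher and 0 lower by 2-fold or more. ATOX1, the chaperone that brings copper to the secretory pathway, stood at 121 FPKM in the primary against 249 in the metastatic library. SOD1, a copper and zinc enzyme, stood at 331 and 614 FPKM, a log2 ratio of 0.89. The copper importer SLC31A1 stood at 11.5 and 22.9 FPKM, a log2 ratio of 0.93, and its relative SLC31A2 at 2.88 and 5.18 FPKM. CCS, which loads copper into SOD1, stood at 87.3 and 56.6 FPKM.

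Other routes and sensors of zinc had a median of -0.66 over 7 genes that reached 1 FPKM, and 1 was lower and 0 higher by 2-fold or more. The lower one was SLC40A1 (ferroportin), an iron exporter, at 28.0 FPKM in the primary against 8.81 in the metastatic library. TMEM163, a zinc efflux transporter, stood at 4.59 and 8.90 FPKM, a log2 ratio of 0.82, and the zinc-sensing receptor GPR39 at 1.75 and 2.07. CNNM4, a transporter of divalent metals, stood at 4.74 and 2.47 FPKM, and the potassium channel KCNK3 at 2.38 and 0.847. A list drawn up for enzymes that take up zinc in the secretory pathway had 3 of 6 genes lower and 0 higher by 2-fold or more, and a median of -0.58. It also holds PIGA, which acts in the synthesis of GPI anchors and is not itself known as a zinc enzyme. Without PIGA, a removal chosen after the values were seen, 2 of 5 were lower, 3 had a log2 ratio above 0, and the median was 0.03. The carbonic anhydrase CA9, also a hypoxia-responsive gene, stood at 97.7 and 3.83 FPKM and the lysophospholipase ENPP2 at 1.71 and 0.179. PIGA stood at 20.4 and 5.18 FPKM. No alkaline phosphatase gene reached 1 FPKM, with ALPL at 0.788 and 0.445 FPKM. NT5E (CD73), an ectonucleotidase, stood at 24.0 and 29.2 FPKM.

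Genes that flank the metallothionein cluster on its chromosome went both ways. Of 13 that reached 1 FPKM, 1 was lower and 1 higher by 2-fold or more, near the shares over all labels. The median log2 ratio was 0.24. The cilium gene BBS2 stood at 30.2 FPKM in the primary against 14.4 in the metastatic library, and the MHC class I transactivator NLRC5 at 1.49 and 7.54. OGFOD1, a ribosomal prolyl hydroxylase, stood at 16.1 and 28.2 FPKM. The nucleoporin NUP93 stood at 74.1 and 132 FPKM, HERPUD1, of endoplasmic reticulum protein disposal, at 95.3 and 112, and the mRNA cleavage factor NUDT21 at 138 and 111.

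**Figure D5:**
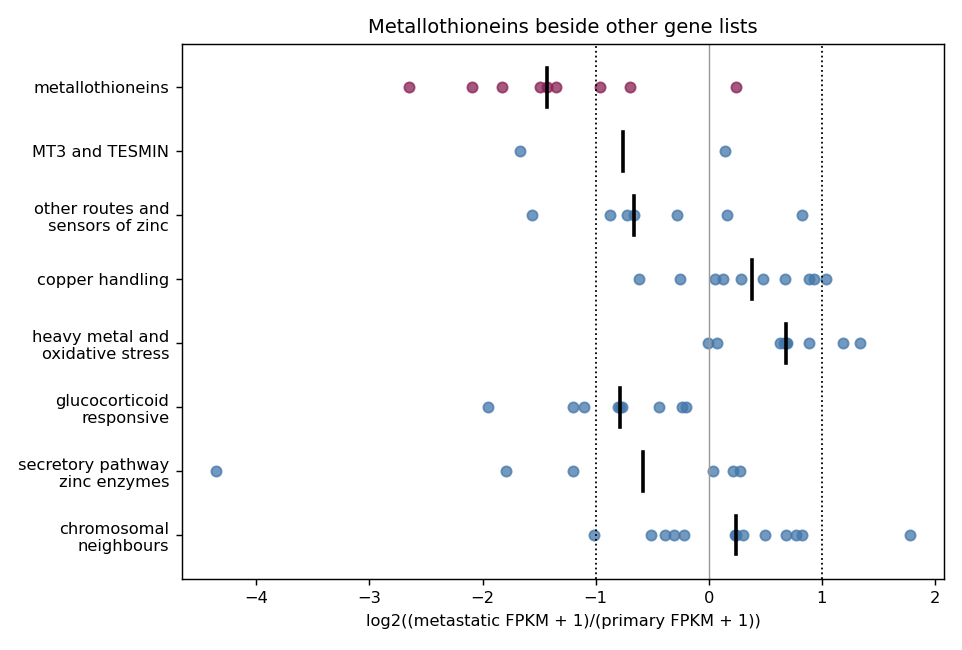
Log2 ratios (metastatic over primary) of the metallothioneins and of 7 other gene lists, 1 point per gene of at least 1 FPKM in a library, with a black bar at each median and dotted lines at 2-fold. The median of the metallothioneins is -1.43, glucocorticoid-responsive genes lie below 0 throughout, and heavy metal and oxidative stress genes lie mostly above it (0.68).

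Markers of other cell types differed between the libraries along with the metallothioneins. Their counts past 2-fold also stand beside 9.22% higher and 9.35% lower over all labels. Of 6 fibroblast markers that reached 1 FPKM, 4 were lower and 1 higher by 2-fold or more, with a median log2 ratio of -1.66. The 8 listed alone summed to 523 FPKM in the primary against 160 in the metastatic library. COL1A2 made up most of that sum, at 474 and 149 FPKM. DCN, the higher one, stood at 0.370 and 2.89 FPKM, and LUM and THY1 were under 1 FPKM in both. Endothelial markers had 2 of 3 lower and a median of -1.48, and summed to 27.1 and 4.77 FPKM over 7 genes. EGFL7, at 19.1 and 1.58 FPKM, and CLDN5, at 5.73 and 1.41, made up most of that sum. PECAM1, CDH5 and VWF were under 1 FPKM in both libraries, and KDR was listed at 0 in both. Hepatocyte markers mostly went the other way, with a median of 1.495 and 8 of 11 higher against 1 lower. They summed to 463 and 1393 FPKM over 13 genes. CPS1 was the lower one, at 31.7 and 2.96 FPKM, and TTR and AHSG were under 1 FPKM in both. Pancreatic acinar markers had 3 of 6 higher, a median of 1.42, and sums over 9 genes of 1311 and 7337 FPKM, mostly of SPINK1, with AMY2A listed at 0. CTRB1, at 10.2 and 8.86 FPKM, and CTRC, at 1.25 and 0.847, had the lower value in the metastatic library, within 2-fold. PRSS1 and CPB1 were under 1 FPKM in both. Pancreatic islet markers summed to 6.04 and 6.06 FPKM over 7 genes, with PPY, IAPP, SLC30A8 and G6PC2 listed at 0. Leukocyte markers summed to 5.53 and 12.6 FPKM over 7 genes, mostly of LYZ in the metastatic library, with CD3E among those listed at 0. LYZ stood at 2.72 and 12.0 FPKM, and CSF1R went the other way, at 1.06 and 0.243. PTPRC, CD14 and NKG7 were under 1 FPKM in both libraries, so the higher sum was that of LYZ alone. Erythroid markers summed to 36.0 and 99.9 FPKM over 4 genes, mostly of HBB. The part of these cells, and of mouse transcripts, in the metallothionein and transporter values was not tested.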

How the data were processed

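The authors deposited FPKM in 1 table of 62573 rows, with 1 column per library. Per the submitters' processing notes, bcl2fastq 2.18.0.12, STAR 2.7.6a, Cufflinks 2.2.1 and the human build GRCh38 were used, with no role or order given. Although the labels name mouse as the organism, gene symbols are human. The annotation, filters and handling of mouse reads were not given in the sources used here. Human sequences were not used here.

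Rows with 1 label were summed. Members were symbols of the forms MT1 plus a letter, MT2A, MTF1, SLC30A or SLC39A plus a number. MT1L fits the form but is a pseudogene and was left out. In the other lists, a row naming several symbols was counted for a gene only where the rest were short or antisense RNAs or names of clones. Every member was named. From the other lists by function or position, genes at least 2-fold different and up to 4 with the largest absolute log2 ratio were named. The rule was not applied to cell type markers, which are given as counts, medians or sums, with some genes named. The cell type markers named, and NQO1, FKBP5, NR3C1, CCS, GPR39, ALPL, HERPUD1 and NUDT21, were chosen after their values were seen; 1 marker is not reported here. Members and lists were chosen with earlier results of these data known. The procedure was tested on simulated data and run with Python 3.11.15 and pandas 2.3.3.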

Additional observations from a re-analysis of the deposited data

Results flagged for a closer look

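Rows of MT1 pseudogenes were left out of the comparisons above and counted only in 1 of the alternatives, chosen after seeing the data. Of the 6 such rows with a value, MT1P1 and MT1P3 were singled out because their level in the metastatic library was above that in the primary. MT1P1 stood at 3.91 FPKM in the primary against 17.6 in the metastatic library, and MT1P3 was listed at 0 in the primary library and stood at 8.79 in the other. The other 4 rows were lower in the metastatic library: MT1L stood at 87.3 and 59.8 FPKM, MT1XP1 at 11.1 and 1.85, MT1DP at 6.74 and 3.96, and MT1JP at 1.88 FPKM and listed at 0. These differences have no replicate check.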

How the results depend on the processing

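With a 4-fold threshold, 0 members were higher and 2 lower, and of all labels 165 were higher and 259 lower. With a filter of 5 FPKM, 859 labels were at least 2-fold lower. Counting the loci merged with SLC39A1 and SLC39A3, an alternative chosen after seeing the data, gave 2 higher members, as SLC39A3's locus passed 2-fold. Of 81 recomputed medians, sums and counts, 75 moved by less than 0.25 on the log2 scale or, for counts, by no more than 1.5 times, and the other 6 are those given so far in this section. Within those limits, the background still depended on the pseudocount. At 0.1 FPKM, 1766 labels were higher and 1906 lower by 2-fold or more, in place of 1273 and 1291. The members stayed at 1 higher and 6 lower. Of 205 recomputed log2 ratios of single members, 0 moved by 0.25 or more. Among them 4 changed sign (SLC30A6 under 3 rescalings and SLC39A13 under 1) and 3 changed sides of 2-fold (MT1E under 3 rescalings). Changing the filter or keeping single-symbol labels alone cannot alter the ratio of a single gene. The largest log2 shift of a rescaling was -0.17, so a move of 0.25 was hardly possible there either. Alternatives were pseudocounts of 0.1 and 0.5 FPKM, no filter, 3 rescalings, the highest row of a label, single-symbol labels alone, and, added later, pseudogene rows. With 1 library per group, none could be left out. The depth is unknown, so members under 1 FPKM could not be compared.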
